A study of Mus musculus with 12 samples.

Results

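The 39 genes described here encode the UDP-glucuronosyltransferases (UGT) of families 1, 2 and 3 and the cytosolic sulfotransferases (SULT). They were chosen by name alone, as every gene entry whose symbol is that of a Ugt1, Ugt2, Ugt3 or Sult gene, and make up 20 *Ugt* and 19 *Sult* entries of the 24340 in each of 2 expression tables. The rule uses no measured value, but it was set with earlier results of these data known. Each of the 39 entries names a single gene.

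RNA-seq was performed on *Hnf4a* cKO livers, control livers, HNF4A EE 3T3 cells and control 3T3 cells, with 3 samples in each group. The *Hnf4a* cKO mice were adults carrying *Hnf4a* fl/fl and *Alb-CreERT2*, a Cre driven by the *Albumin* promoter and active only with tamoxifen, and were given tamoxifen every other day until their livers were collected on day 7. The control livers are labelled wild type. The study's methods give them as *Hnf4a* fl/fl, Cre negative and without tamoxifen, whereas a supplementary legend gives them as the same genotype without tamoxifen. In either account the 2 liver groups differ in tamoxifen as well as in the deletion, so effects of the drug and of HNF4A loss cannot be told apart. NIH 3T3 cells are a line of mouse embryonic fibroblasts. The HNF4A EE cells received a lentivirus for mouse *Hnf4a* (isoform 2) with eGFP, the control cells the empty vector, and both were collected 72 h after transduction. The virus was titrated to reach most cells. The study's reporting summary gives the sex of its animals as female. The comparisons ask how the conjugating enzymes respond when HNF4A is removed from an organ that has it and when it is supplied to cells with little of it.

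UGT enzymes sit in the membrane of the endoplasmic reticulum and attach a sugar acid, usually taken from UDP-glucuronate, to bilirubin, steroids, bile acids, phenols and drugs. SULT enzymes work in the cytosol and transfer a sulfate group from the donor PAPS to hormones, bile acids, phenols and amines. Both reactions make their substrates more soluble in water, so that the liver can export them into bile or blood. The *Ugt1a* genes form an unusual locus, in which each has its own first exon and promoter and all are spliced to the same last exons. The *Ugt2*, *Ugt3* and *Sult2a* genes lie in clusters of related genes. The *Sult1* genes are spread over chromosomes 5, 7 and 17, and *Sult3*, *Sult4*, *Sult5* and *Sult6* have 1 gene each here.

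Each deposited table holds 1 FPKM for each group, the fragments of a gene divided by its exon length and by the sequenced reads of the library. The tables hold no value for a single sample, so no spread or interval could be computed from them. The authors' own test results in the tables were not used, and the differences below are given without a p-value or a replicate check. Levels of different genes can be compared with each other, since FPKM is a value per length. The difference of a gene is given as the log2 ratio of FPKM + 1, cKO over control or HNF4A EE over control, which understates changes of genes with low values. A gene is called lower or higher when this ratio is at or beyond 0.5 in either direction and the gene has at least 1 FPKM in 1 or both groups of the table. The listed FPKM sum to 458704 in cKO and 601955 in control livers, and to 478182 in HNF4A EE and 528286 in control cells. Bringing both groups to equal sums multiplies each plain FPKM ratio by a factor worth 0.39 on the log2 scale in the livers and 0.14 in the cells. With 1 added to the rescaled FPKM, the move differs between genes and can be downward for genes near 0. As the authors scaled them, the median log2 ratio over all entries at the floor was -0.01 in both tables. *Hnf4a* itself had 144 FPKM in cKO livers, against 275 in control livers, and 1758 FPKM in HNF4A EE cells, against 0.639 in control cells. Cre removes only a part of the gene, and how much of the FPKM in cKO livers comes from the remaining exons was not tested. Of the hepatocyte markers, *Ttr* had 1345 FPKM in cKO livers, against 6339 FPKM in control livers, and *Apoa1* had 11880 FPKM in cKO livers, against 9012 FPKM in control livers. *Alb* is listed at 0 in both liver groups with a status of low data in the table, so an exact 0 in this table can be a failed estimate. None of the 39 genes carries such a status.

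Most of the liver UGT and SULT genes were lower in *Hnf4a* cKO livers. Of the 39 genes, 29 had at least 1 FPKM in a liver group, and of these 21 were lower, 2 higher and 6 within the limits, while 10 stayed below 1 FPKM in both groups. Over all 11275 entries at that floor, 19.1% were lower and 15.5% higher. Of the 21 lower genes, 7 had at least 1 FPKM in control livers only, and such a gene reaches the floor through the group in which it is high. The median log2 ratio of the 29 genes was -3.46. A log2 ratio of -3 or below, a limit chosen after the values were seen, was reached by 15 of them and by 1.70% of all entries. Of the 13 genes with 100 FPKM or more in control livers, 9 were lower. Picking genes by a high control value favours a lower call, and the share over all entries at this level was not computed. In cKO livers, 4 of the 39 genes had 100 FPKM or more. In bulk tissue, fewer hepatocytes and less RNA per hepatocyte cannot be told apart.

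**Figure D1:**
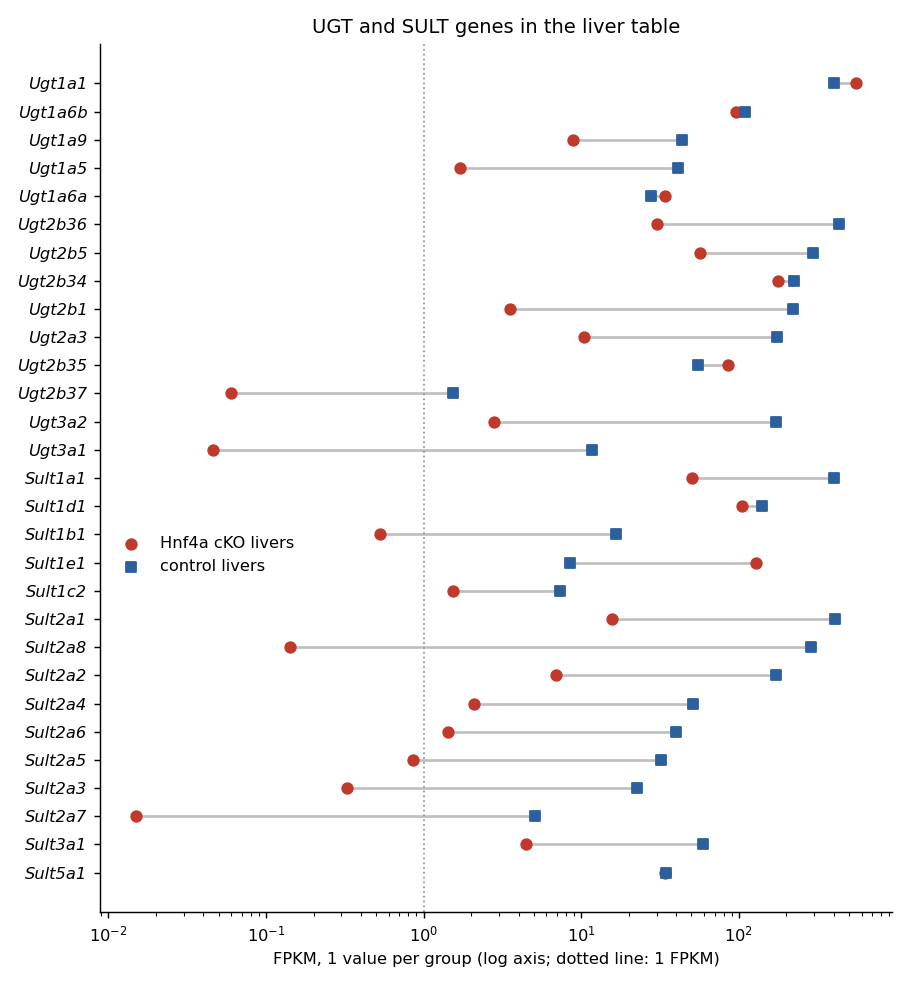
FPKM of the 29 UGT and SULT genes with at least 1 FPKM in a liver group, on a log axis, with red circles for *Hnf4a* cKO livers and blue squares for control livers (1 value per group, no error available) and genes ordered by family. Most circles lie left of their squares, while *Sult1e1*, *Ugt2b35*, *Ugt1a1* and *Ugt1a6a* have the higher value in cKO livers.

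The promoters of these genes are shown first, since genes of 1 cluster went in different directions. Only letters near the start site were compared. The study places most HNF4A sites at enhancers, which were not searched, and a part of the promoters in these directions was not tested. RefSeq promoters on GRCm38.p6, the assembly also called mm10, were matched by symbol for 33 of the 39 genes and give 36 windows of 250 bases before to 50 bases after the start. *Sult2a1*, *Sult2a2*, *Sult2a7*, *Sult4a1*, *Ugt1a6b* and *Ugt3a2* had no entry. The motif GTTAAT was searched on both strands, where it reads ATTAAC on the other strand. It occurred in 12 of the 36 windows (33.3%), against 7.10% of all 32851 promoters in the table. Of the genes with a promoter, 8 of 17 lower genes, 3 of 5 within the limits and 0 of 2 higher genes held it, so that the motif was present in genes that were lower and in genes that were not. The 36 windows are not unrelated promoters. Among the genes with the motif are *Sult2a3*, *Sult2a4*, *Sult2a5* and *Sult2a6* of 1 cluster, and *Ugt1a1*, *Ugt1a6a*, *Ugt1a9* and *Ugt1a10* of 1 locus. The letters CAAAGTCCA, an HNF4A site, occurred in 1 member window, an alternative promoter of *Sult1b1* where they begin 26 bases after the start, and in 0.475% of all promoters. CAAAGTTCA occurred in none of the 36 and in 0.390% of all. No match says only that these letters are not in the window.

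The 120 bases before the start are printed for 7 genes in lower case, 5′ to 3′ on the gene's strand, with GTTAAT or ATTAAC in capitals. The first 5 hold the motif, and *Ugt2b1* and *Sult1e1*, which do not, had the lowest and the highest log2 ratio of the chromosome 5 cluster in cKO livers.
Ugt2a3, chr5:87337196-87337315, minus strand: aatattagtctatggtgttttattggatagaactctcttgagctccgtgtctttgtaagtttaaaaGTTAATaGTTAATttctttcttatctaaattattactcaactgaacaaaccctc
Ugt1a9, chr1:88070659-88070778, plus strand: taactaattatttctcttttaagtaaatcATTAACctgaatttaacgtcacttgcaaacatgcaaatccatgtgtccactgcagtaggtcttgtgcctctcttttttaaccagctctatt
Ugt1a1, chr1:88211839-88211958, plus strand: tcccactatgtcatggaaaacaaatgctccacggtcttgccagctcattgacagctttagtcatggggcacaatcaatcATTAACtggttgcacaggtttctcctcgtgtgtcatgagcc
Sult2a3, chr7:14123049-14123168, minus strand: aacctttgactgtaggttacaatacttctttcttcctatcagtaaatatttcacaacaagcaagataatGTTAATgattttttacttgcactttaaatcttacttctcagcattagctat
Sult2a6, chr7:14254871-14254990, minus strand: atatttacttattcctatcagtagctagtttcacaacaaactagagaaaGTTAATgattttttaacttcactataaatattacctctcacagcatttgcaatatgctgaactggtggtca
Ugt2b1, chr5:86926504-86926623, minus strand: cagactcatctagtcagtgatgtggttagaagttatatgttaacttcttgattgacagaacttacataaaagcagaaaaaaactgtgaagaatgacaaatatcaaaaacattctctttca
Sult1e1, chr5:87591612-87591731, minus strand: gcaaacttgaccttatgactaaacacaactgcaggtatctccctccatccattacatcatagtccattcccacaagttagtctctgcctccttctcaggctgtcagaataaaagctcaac
Counted from the base before the start as -1, the motif begins at -54 and -47 in *Ugt2a3*, at -91 in *Ugt1a9*, at -41 in *Ugt1a1*, at -51 in *Sult2a3* and at -71 in *Sult2a6*. Both *Ugt1a9*, with a log2 ratio of -2.19 in cKO livers, and *Ugt1a1*, with 0.46, hold it. A match is a run of letters and not a measured site.

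The genes of the *Ugt1* locus did not move together in the livers. *Ugt1a1*, the enzyme that conjugates bilirubin, had 556 FPKM in cKO livers, against 403 FPKM in control livers, a log2 ratio of 0.46 that lies just inside the limit and is past it, at 0.86, when both groups are brought to equal FPKM sums. It ranked 108 among all 24340 entries in cKO livers and 232 in control livers. *Ugt1a6a* and *Ugt1a6b*, which conjugate small flat phenols, also stayed within the limits. *Ugt1a6a* had 33.8 FPKM in cKO livers, against 27.8 FPKM in control livers, and its log2 ratio of 0.27 becomes 0.66 with equal sums. *Ugt1a6b* had 95.1 FPKM in cKO livers, against 109.5 FPKM in control livers, a ratio below 0 that turns above 0 with equal sums. In contrast, *Ugt1a9*, another enzyme for phenols, and *Ugt1a5* were lower. *Ugt1a9* had 8.81 FPKM in cKO livers, against 43.6 FPKM in control livers, which is 4.95-fold lower. *Ugt1a5* had 1.69 FPKM in cKO livers, against 41.1 FPKM in control livers, which is 24.3-fold lower. The other 3 genes of the locus, *Ugt1a2*, *Ugt1a7c* and *Ugt1a10*, stayed below 1 FPKM in both groups, with 0.423 FPKM as their highest value.

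With the 8 *Ugt1a* genes summed, the locus had 697 FPKM in cKO livers, against 626 FPKM in control livers, so that its sum was close in the 2 groups although 2 genes were lower. The table places all 8 at a single interval, chromosome 1 from 88055411 to 88220002 of mm10. Their transcripts are hard to tell apart. Of all stretches of 50 bases in the GENCODE transcripts of *Ugt1a1*, 58.2% also occur in another of the 39 genes, and the share is 96.0% for *Ugt1a6a*, 79.8% for *Ugt1a6b* and 64.0% for *Ugt1a5*. How the authors' software divided reads of the shared exons between these genes was not tested, and their separate FPKM are uncertain for this reason.

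The *Ugt2* genes, whose enzymes act on steroids, bile acids and many drugs, were mostly lower. Of 10 genes, 5 were lower, 1 higher, 1 within the limits and 3 below the floor. *Ugt2b36* had the highest level of all *Ugt* genes in control livers, with 429 FPKM, against 30.1 FPKM in cKO livers, where it was 14.3-fold lower. *Ugt2b1* had 3.52 FPKM in cKO livers, against 221 FPKM in control livers, which is 62.7-fold lower. *Ugt2a3* had 10.3 FPKM in cKO livers, against 174 FPKM in control livers, 16.8-fold lower. These 3 genes had log2 ratios of -3.79, -5.62 and -3.95. *Ugt2b5* had 56.4 FPKM in cKO livers, against 297 FPKM in control livers, which is 5.26-fold lower. *Ugt2b37*, the fifth of the lower genes, was at a low level in both groups, with 0.0603 FPKM in cKO livers and 1.53 FPKM in control livers.

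*Ugt2b34* and *Ugt2b35* differed from the other *Ugt2* genes. *Ugt2b34* had 177 FPKM in cKO livers, against 224 FPKM in control livers, within the limits at a log2 ratio of -0.34 that turns above 0 with equal sums. *Ugt2b35* had 85.4 FPKM in cKO livers, against 54.9 FPKM in control livers, which is 1.55-fold higher. In cKO livers *Ugt2b34* was thus the *Ugt2* gene with the highest level, while in control livers *Ugt2b36* and *Ugt2b5* were above it. Of the *Ugt2b34* stretches of 50 bases 1.44%, and none of those of *Ugt2b35* and *Ugt2b1* occur in another of the 39 genes, against 41.7% for *Ugt2b5*. The contrast between *Ugt2b1* and *Ugt2b35* is therefore one between transcripts that do not share such stretches with other members.

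Both genes of the *Ugt3* family were lower. In humans the enzymes of this family use other UDP-sugars in place of UDP-glucuronate. *Ugt3a2* had 2.81 FPKM in cKO livers, against 172 FPKM in control livers, which is 61.3-fold lower. *Ugt3a1* had 0.0464 FPKM in cKO livers, against 11.7 FPKM in control livers, a log2 ratio of -3.60. They lie next to each other on chromosome 15, and 8.55% of the stretches of *Ugt3a2* occur in *Ugt3a1*.

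The *Sult2a* genes, whose enzymes sulfate steroids such as DHEA and bile acids, were lower throughout. All 8 lie within 869 kb of chromosome 7, from 13623967 to 14492926, and all 8 were lower. *Sult2a1* had the highest level of all *Sult* genes in control livers, at 406 FPKM, against 15.6 FPKM in cKO livers, where it was 26.0-fold lower. *Sult2a2* had 6.87 FPKM in cKO livers, against 172 FPKM in control livers, 25.1-fold lower. *Sult2a8*, which in the mouse sulfates bile acids, had 0.141 FPKM in cKO livers, against 287 FPKM in control livers. Its log2 ratio of -7.98 was the lowest of the 39 genes. *Sult2a4* had 2.08 FPKM in cKO livers, against 51.4 FPKM in control livers. *Sult2a6* had 1.42 FPKM in cKO livers, against 40.0 FPKM in control livers. The remaining 3, *Sult2a3*, *Sult2a5* and *Sult2a7*, had 0.0150 to 0.852 FPKM in cKO livers and 5.10 to 31.8 FPKM in control livers, and none reached 1 FPKM in cKO livers. The log2 ratios of *Sult2a1* to *Sult2a6* lay between -4.61 and -4.08. This range depends on the pseudocount, since *Sult2a3* and *Sult2a5* were under 1 FPKM in cKO livers, and with none it ran from -6.12 for *Sult2a3* to -4.63 for *Sult2a4*. Several of these copies also share sequence. Of the stretches of 50 bases, 62.1% of those of *Sult2a2*, 33.2% of those of *Sult2a1* and 6.63% of those of *Sult2a6* occur in another member, against none for *Sult2a7* and *Sult2a8*.

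In the mouse several of these sulfotransferases, among them *Sult2a1* and *Sult3a1*, are known to be more abundant in female than in male livers, and sex markers of the 2 groups are therefore given beside them. *Sult3a1*, which acts on amines, had 4.47 FPKM in cKO livers, against 59.1 FPKM in control livers, 13.2-fold lower. *Xist* had 119.5 FPKM in cKO livers and 62.0 FPKM in control livers, and the Y-linked genes *Ddx3y*, *Kdm5d*, *Uty* and *Eif2s3y* are listed at 0 in both. The female-biased *Cyp2b9* had 124 FPKM in cKO livers, against 375 FPKM in control livers. The male-biased *Cyp2d9* had 7.76 FPKM in cKO livers, against 29.0 FPKM in control livers. Of the 18 sex-biased and sex-linked genes, 14 had at least 1 FPKM in a liver group, and 13 of these were lower. The share of lower genes over all entries was 19.1%. Genes biased to either sex were thus among the lower ones, and their part in the *Sult* values was not tested.

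The *Sult1* genes showed the widest differences in direction. *Sult1e1*, the estrogen sulfotransferase, had 128 FPKM in cKO livers, against 8.47 FPKM in control livers, which is 15.1-fold higher. It ranked 547 among all entries in cKO livers and 5686 in control livers. *Sult1a1*, the main phenol sulfotransferase, had 50.7 FPKM in cKO livers, against 398 FPKM in control livers, which is 7.85-fold lower. *Sult1d1*, which in the mouse acts on catecholamines and other phenols, had 104 FPKM in cKO livers, against 140 FPKM in control livers, within the limits at a log2 ratio of -0.43. *Sult1b1*, which acts on thyroid hormones, had 0.531 FPKM in cKO livers, against 16.5 FPKM in control livers. *Sult1c2* had 1.54 FPKM in cKO livers, against 7.28 FPKM in control livers, 4.74-fold lower. *Sult1c1* is listed at 0 in both groups. No stretch of 50 bases of the *Sult1* genes occurs in another of the 39 genes. *Sult5a1* had almost the same value in both groups, 33.8 FPKM in cKO livers and 34.6 FPKM in control livers, and the sign of its ratio turns with equal sums. *Sult2b1*, *Sult4a1* and *Sult6b1* stayed below 0.1 FPKM in both.

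The make-up of both enzyme groups was therefore different in cKO livers. The *Ugt* genes summed to 1063 FPKM in cKO livers, against 2212 FPKM in control livers. *Ugt1a1* alone held 52.4% of this sum in cKO livers, against 18.2% in control livers. The *Ugt2* genes held 34.2% in cKO livers, against 63.4% in control livers. The *Sult* genes summed to 350.1 FPKM in cKO livers, against 1682 FPKM in control livers. *Sult1e1* held 36.5% of the *Sult* sum in cKO livers, against 0.504% in control livers, and *Sult1d1* held 29.7% in cKO livers, against 8.35% in control livers. The *Sult2* genes held 7.83% in cKO livers, against 60.5% in control livers. Shares within a group do not depend on how the groups were scaled to each other.

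**Figure D2:**
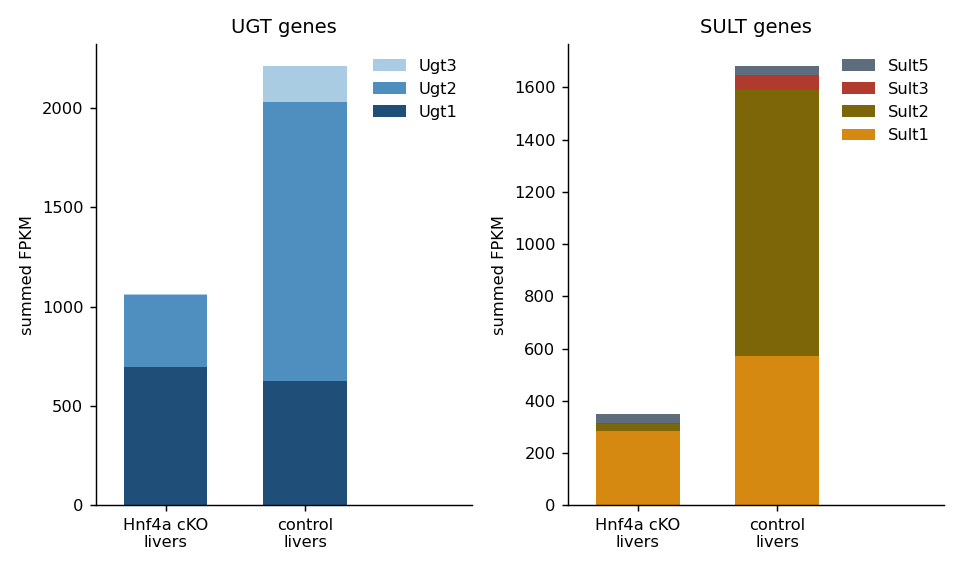
Summed FPKM of the *Ugt* families (left) and of the *Sult* families (right), with *Hnf4a* cKO livers left of control livers and each colour 1 family, from 1 value per gene and group. The *Ugt1* part is close in the 2 groups (697 and 626 FPKM), while the *Sult2* part is 27.4 FPKM in cKO livers and 1017 FPKM in control livers.

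Neighbours on chromosome 5 went in opposite directions. The interval from 86889770 to 87591611 holds 13 of the 39 genes, first the *Ugt2* genes and then *Sult1b1*, *Sult1d1* and *Sult1e1*. *Ugt2b34*, *Ugt2b1*, *Ugt2b35* and *Ugt2b36*, in this order along the chromosome, had log2 ratios of -0.34, -5.62, 0.63 and -3.79. At the far end, *Sult1b1*, *Sult1d1* and *Sult1e1* had -3.52, -0.43 and 3.76. In contrast, the 8 *Sult2a* genes on chromosome 7 all had ratios of -2.59 or below.

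**Figure D3:**
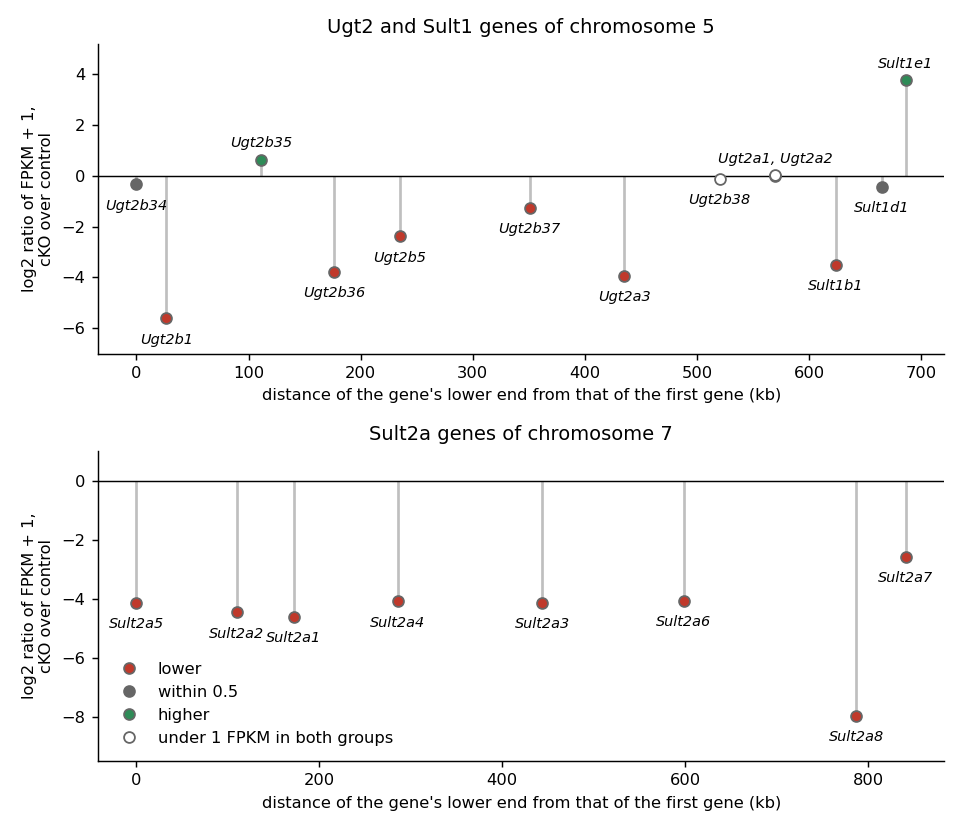
Log2 ratio of FPKM + 1, cKO over control livers, against the distance in kb of each gene's lower end from that of the first gene, for the 13 genes on chromosome 5 (top) and the 8 *Sult2a* genes on chromosome 7 (bottom); open points had under 1 FPKM in both groups. Points lie on both sides of 0 on chromosome 5, from -5.62 for *Ugt2b1* to 3.76 for *Sult1e1*, and all points lie below 0 on chromosome 7.

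The genes that make and carry the donors were called in both directions in the livers, beside 19.1% lower and 15.5% higher over all entries. For UDP-glucuronate, 2 of 7 genes were lower, 2 higher and 3 within the limits. *Ugdh*, which oxidizes UDP-glucose to UDP-glucuronate, was higher, with 93.4 FPKM in cKO livers, against 54.3 FPKM in control livers. *Ugp2*, which makes UDP-glucose, was lower, with 92.3 FPKM in cKO livers, against 201 FPKM in control livers. The nucleotide sugar carrier *Slc35d2* was lower as well, and *Pgm1* was higher. *Pgm2* and *Slc35d1* were among those within the limits. For PAPS, 1 of 10 genes at the floor was lower, 1 higher and 8 within the limits, and with equal FPKM sums 4 were higher. *Slc26a1*, a sulfate transporter, had 2.96 FPKM in cKO livers, against 93.9 FPKM in control livers. The liver's main PAPS synthase gene by level, *Papss2*, had 94.0 FPKM in cKO livers, against 116 FPKM in control livers, and *Papss1*, at a lower level, was the higher gene, with 16.3 FPKM in cKO livers, against 7.11 FPKM in control livers.

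The sulfotransferases of the Golgi also use PAPS but modify sugar chains and proteins, and are given beside the cytosolic ones. Of 11 at the floor, 3 were lower, 2 higher and 6 within the limits (2 lower and 4 higher with equal sums), with a median log2 ratio of -0.04, against -3.52 for the 15 *Sult* genes at the floor. Over all liver entries, 19.1% were lower and 15.5% higher. *Ndst1* had 11.0 FPKM in cKO livers, against 25.5 FPKM in control livers, and *Tpst1* had 27.4 FPKM in cKO livers, against 16.8 FPKM in control livers. The difference between these 2 gene groups could not be tested. The glucuronidase *Gusb*, which can remove glucuronic acid again, had 14.5 FPKM in cKO livers and 16.0 FPKM in control livers, within the limits. The lysosomal sulfatases *Arsa*, *Arsb* and *Arsk*, which act mainly on sulfated lipids and sugar chains, were within the limits as well. With equal sums, 2 of these 4 hydrolases were higher.

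Transporters of the conjugates and of organic anions were counted by the direction of transport, beside 19.1% lower and 15.5% higher over all entries. Of 5 exporters of conjugates at the floor, 1 was lower, 1 higher and 3 within the limits, and with equal sums 2 were higher. *Abcc2*, the exporter of bilirubin glucuronides into bile, had 99.6 FPKM in cKO livers, against 113 FPKM in control livers. *Abcc3*, which exports into the blood, had 93.5 FPKM in cKO livers, against 80.4 FPKM in control livers. The lower gene was *Abcg2* and the higher *Abcc5*. Of 6 uptake carriers of anions at the floor, 5 were lower, with *Slco1b2* at 109.8 FPKM in cKO livers, against 456 FPKM in control livers.

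Among the receptors and liver factors known to act on these enzymes, 10 of 23 were lower, 7 higher and 6 within the limits. The shares over all entries were 19.1% lower and 15.5% higher. *Nr1i3*, the receptor CAR, had 2.75 FPKM in cKO livers, against 161 FPKM in control livers, while *Nr1i2*, the receptor PXR, had 37.7 FPKM in cKO livers and 51.3 FPKM in control livers, within the limits. *Cebpa* was lower and *Nr0b2* higher. With equal FPKM sums 6 were lower and 8 higher, so which direction was more frequent depends on the scaling. Of 12 target genes of these receptors and of the stress factor NRF2, 5 were lower, 2 higher and 5 within the limits, and with equal sums 4 were lower and 5 higher. The receptor targets *Cyp1a2*, *Cyp3a11*, *Cyp4a10* and *Cyp4a14* were lower, as was the NRF2 target *Gclm*. *Cyp3a11*, a target of PXR and the most abundant of the list, had 255 FPKM in cKO livers, against 1049 FPKM in control livers. *Cyp1a2*, a target of the dioxin receptor AHR, had 43.2 FPKM in cKO livers, against 574 FPKM in control livers. The 2 higher genes were the NRF2 target *Srxn1* and *Cyp2b10*, a target of CAR, which had 41.5 FPKM in cKO livers, against 25.6 FPKM in control livers.

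Markers of the cells of the liver are given as whole lists, beside 19.1% lower and 15.5% higher over all entries. Of 10 hepatocyte markers at the floor, 7 were lower, 1 higher and 2 within the limits, and the list with *Alb* at 0 summed to 24477 FPKM in cKO livers, against 54197 FPKM in control livers. Macrophage markers summed to 214 FPKM in cKO livers and 195 FPKM in control livers, with 7 of 8 within the limits. The higher one was *Marco*, with 43.4 FPKM in cKO livers, against 3.91 FPKM in control livers, and the other 7 had log2 ratios between -0.43 and -0.05. Endothelial markers summed to 69.0 FPKM in cKO livers and 88.5 FPKM in control livers. Stellate cell and fibroblast markers summed to 158 FPKM in cKO livers and 229 FPKM in control livers. Cholangiocyte markers summed to 42.2 FPKM in cKO livers and 29.4 FPKM in control livers, with 4 of 6 higher. Markers of neutrophils and lymphocytes summed to 37.6 FPKM in cKO livers and 7.18 FPKM in control livers, carried by *S100a8* and *S100a9*. The other members did not rise with them. *Ptprc* had 1.89 FPKM in cKO livers and 2.67 FPKM in control livers, within the limits, and *Cd3e*, *Cd79a* and *Ngp* stayed below 1 FPKM in both. The *Ugt* and *Sult* sums differed beside these lists, and the part of the cell make-up in them was not tested.

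**Figure D4:**
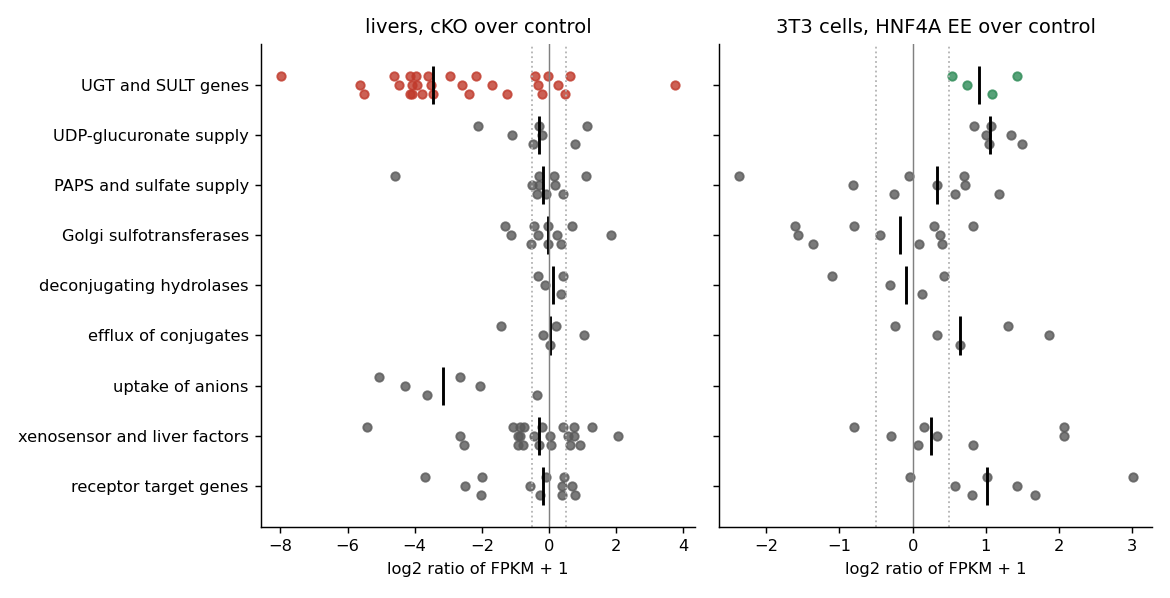
Log2 ratio of FPKM + 1 for the UGT and SULT genes and for 8 gene lists, in cKO over control livers (left) and HNF4A EE over control 3T3 cells (right), 1 point per gene with at least 1 FPKM in a group, black bars for the median and dotted lines at 0.5 in both directions. In the livers the UGT and SULT genes and the uptake carriers have medians of -3.46 and -3.15, while the other lists have medians between -0.30 and 0.12 as the authors scaled the values, and in the cells the supply of UDP-glucuronate has a median of 1.06.

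In 3T3 cells only 4 of the 39 genes had at least 1 FPKM, and all 4 were higher in HNF4A EE cells. Over all 10766 entries at the floor, 23.1% were higher and 22.9% lower, and 0 of the 4 genes were lower. *Sult2b1*, which sulfates cholesterol and pregnenolone, had 5.56 FPKM in HNF4A EE cells, against 1.45 FPKM in control cells, which is 3.83-fold higher. *Ugt1a6b* had 13.9 FPKM in HNF4A EE cells, against 9.20 FPKM in control cells, 1.51-fold higher. *Ugt1a6a* had 6.88 FPKM in HNF4A EE cells, against 3.72 FPKM in control cells, 1.85-fold higher. The third gene of the *Ugt1* locus, *Ugt1a7c*, had 4.24 FPKM in HNF4A EE cells, against 1.48 FPKM in control cells, 2.87-fold higher. Their log2 ratios ran from 0.55 for *Ugt1a6b* to 1.42 for *Sult2b1*. The transcripts of *Ugt1a6a* share 94.2% of their stretches of 50 bases with those of *Ugt1a7c*, so the 3 *Ugt1a* values are not independent of each other. These levels were low beside those of the liver genes, although the 2 tables were scaled separately and are not compared in number. Of 10 markers in a list that mixes fibroblast and stellate cell genes, 4 reached the floor, and they were all lower in HNF4A EE cells. The list summed to 15.5 FPKM in HNF4A EE cells and 621 FPKM in control cells. Hepatocyte markers reached at most 0.272 FPKM in HNF4A EE cells and 0.0852 FPKM in control cells. The part of such a change in the 4 genes was not tested.

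**Figure D5:**
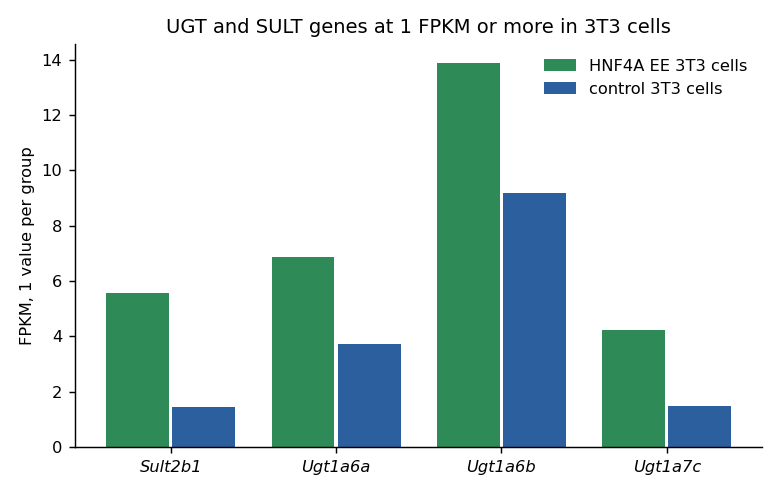
FPKM of the 4 UGT and SULT genes with at least 1 FPKM in 3T3 cells, with green bars for HNF4A EE cells left of blue bars for control cells (1 value per group, no error available). Each green bar is above its blue bar, with 5.56 and 1.45 FPKM for *Sult2b1* and 13.9 and 9.20 FPKM for *Ugt1a6b*.

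The genes that were lower in cKO livers were hardly detected in the cells. Of the 21 lower genes, 0 reached 1 FPKM in either group of 3T3 cells, so none could be called there, and 13 are listed at 0 in both. The highest of them was *Sult1b1*, with 0.415 FPKM in HNF4A EE cells, against 0.0212 FPKM in control cells. Of the 4 genes that were higher in HNF4A EE cells, *Ugt1a6a* and *Ugt1a6b* were within the limits in the livers, and *Ugt1a7c* and *Sult2b1* were below the floor there. *Ugt1a1*, the *Ugt* gene with the highest level in cKO livers, had 0.0606 FPKM in HNF4A EE cells and 0.0149 FPKM in control cells. Among the 35 genes below the floor in 3T3 cells, 20 are listed at 0 in both groups, 14 have the higher value in HNF4A EE cells and 1, *Sult6b1*, in control cells. Only 3 of the 35, *Sult1b1*, *Ugt1a9* and *Ugt1a10*, were above 0.1 FPKM in HNF4A EE cells. Whether the values under this level differ cannot be said, as the read depth is unknown.

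The genes of UDP-glucuronate supply were higher in HNF4A EE cells. All 6 at the floor were called higher, beside 23.1% higher and 22.9% lower over all entries. *Ugdh* had 259 FPKM in HNF4A EE cells, against 122 FPKM in control cells, and *Pgm2* had 94.9 FPKM in HNF4A EE cells, against 33.0 FPKM in control cells. *Ugp2* had 56.6 FPKM in HNF4A EE cells, against 31.2 FPKM in control cells. The other 3 were *Pgm1*, *Slc35d1* and *Slc35d2*. Genes of PAPS supply were divided, with 4 of 9 higher, 2 lower and 3 within the limits. *Papss1*, the PAPS synthase gene with the higher level in these cells, had 12.9 FPKM in HNF4A EE cells, against 71.4 FPKM in control cells, and *Papss2* had 5.98 FPKM in HNF4A EE cells and 4.56 FPKM in control cells. *Papss1* was thus higher in cKO livers and lower in HNF4A EE cells, each against its control. The Golgi sulfotransferases had 4 of 10 lower, among them *Tpst1* with 8.92 FPKM in HNF4A EE cells, against 29.1 FPKM in control cells, and 1 higher, *Ndst1*.

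Several exporters and stress-responsive genes were higher in HNF4A EE cells, where 23.1% of all entries were higher. Of 5 exporters of conjugates at the floor, 3 were higher, and *Abcc4* had 17.7 FPKM in HNF4A EE cells, against 4.16 FPKM in control cells. None of the 7 uptake carriers reached 1 FPKM. *Nfe2l2*, which encodes NRF2, a factor known to raise conjugating and antioxidant genes, had 350.1 FPKM in HNF4A EE cells, against 82.5 FPKM in control cells. Of 7 receptor and NRF2 target genes at the floor, 6 were higher, with *Hmox1* at 759 FPKM in HNF4A EE cells, against 93.5 FPKM in control cells, while *Nqo1* had 38.5 FPKM in HNF4A EE cells and 39.6 FPKM in control cells. *Ahr* is listed at 0.00320 FPKM in HNF4A EE cells and 0.00321 FPKM in control cells. These genes differed beside *Ugt1a6a*, *Ugt1a6b*, *Ugt1a7c* and *Sult2b1*, and a link between them was not tested.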

How the data were processed

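RNA was extracted by the study with TRIzol from pulverized livers and from 3T3 cells, and the authors used STAR for alignment (mm10) and Cufflinks for the FPKM. Versions in the submitters' notes on processing are STAR 2.5.0b and Cufflinks 2.2.1. The deposited FPKM are 1 value for each group of 3 samples. For annotation, strand setting, scaling and depth, nothing is stated in the sources used here. Both tables also hold the authors' own fold changes, test statistics, p-values and q-values, which were not used. The status column served only to find failed estimates.

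Log2 ratios were computed from FPKM with a pseudocount of 1 for entries with 1 FPKM or more in at least 1 group (Python 3.11.15, pandas 2.3.3, numpy 2.4.6). The limit of 0.5 is the fold part of the study's rule. No test across samples was possible. The ratio and call steps were tested on simulated data. Stretches of 50 bases were compared, a step added after the values were seen, between the protein-coding GENCODE vM21 transcripts of the 39 genes, and motifs were searched in RefSeq promoters. Protein sequences were not used here, and some genes of the lists are counted but not reported by name.

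All genes of the rule are accounted for, and those with 1 FPKM or more in a group of a table are named. Lists give up to 5 members by level, and further members where a count of 5 or fewer is spelled out, chosen after their values were seen. Members and lists were chosen with earlier results of these data known. Alternatives were a pseudocount of 0.1 or none, floors of 0.1 and 5 FPKM or none, a limit of 1, equal FPKM sums, centring on the median and entries that name 1 gene.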

Additional observations from a re-analysis of the deposited data

How the results depend on the processing

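No paired analysis was possible because each table holds 1 value per group, and for the same reason no sample could be left out. The counts of 21 lower genes in cKO livers and 0 lower genes in HNF4A EE cells stayed within 1.5 times of these values under all 9 alternatives. With a limit of 1 in place of 0.5, the liver had 1 higher gene (*Sult1e1*), the cells 2 higher genes, the liver lists 7 higher genes and the lists in the cells 14 higher and 5 lower genes. With equal FPKM sums, the liver had 4 higher genes, *Ugt1a1* (log2 ratio 0.86) and *Ugt1a6a* (0.66) joining *Sult1e1* and *Ugt2b35*, and the liver lists had 29 higher genes, while the median of all liver entries moved to 0.35. The median of the liver genes was -4.07 with no pseudocount, -2.59 with a floor of 0.1 FPKM and -1.71 with no filter, and that of the cells was 0 with no filter, since most members are listed at or near 0. Among the log2 ratios of single genes under the alternatives, 290 kept their side of the limit and, where called, their direction. Many of these were fixed in advance, since some alternatives leave the ratio of a single gene as it was. They are the floors of 0.1 and 5 FPKM, no filter and entries that name 1 gene, with 33, 31, 33 and 33 of the 290. With a limit of 1, 3 were inside it (*Ugt2b35* in the livers, *Ugt1a6a* and *Ugt1a6b* in the cells), and with equal sums 2 went past it. Of the 36 counts of single lists, 11 moved by over 1.5 times with equal sums and 11 with a limit of 1. Depth limits all values near 0 and is unknown.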

Other observations

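Further motifs searched in the 36 promoter windows give the following values. TATAAA, the letters of a TATA box, occurred on either strand in 9 windows (25.0%), against 13.6% of all promoters. Its matches began anywhere from -223 in *Sult2a8* to 6 bases after the start in *Sult1d1*, so they do not mark TATA boxes by position. GCGTG, the core of the site of the dioxin receptor, occurred in 5 windows (13.9%), against 32.4% of all promoters. The 5 windows with GCGTG belong to *Sult1b1*, *Sult1d1*, *Sult2b1* (2 windows) and *Ugt1a5*. These are counts of letters in windows of 250 bases before to 50 bases after the start, and enhancers lie outside them.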
